A study of Mus musculus with 6 samples.

Results

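Some probe sets of an expression array carry the names of several genes, for example because the sequence they read occurs in more than one gene. These probe sets are usually left out of gene tables, so the families they hold were examined on their own. They were all probe sets whose platform annotation names 2 or more genes, other than those naming only histone genes (35 probe sets) or only T cell receptor or immunoglobulin segments (39 probe sets). This gave 1325 members out of 24922 probe sets, of which 21425 name exactly 1 gene and 2098 name none. The rule used the annotation only, not the measured values.

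The samples were regulatory T (Treg) cells from the pancreas and the spleen of female NOD mice, a strain that develops autoimmune diabetes spontaneously. The mice were 10 weeks old and prediabetic, all carried the Foxp3-ires-gfp reporter, and their genetic background is labelled NOD NRB_SFB+. Cells of both tissues were sorted on a MoFlo instrument as DAPI- CD4+ TCRb+ CD45+ GFP+, and their amplified RNA was read on 3 Affymetrix Mouse Gene 1.0 ST arrays per tissue. No treatment separates the groups, and the comparison is of Treg cells in the target organ of the disease with those in a lymphoid organ. Whether each array stands for 1 mouse or a pool is not stated in the labels. Every p-value therefore rests on the spread among these 6 arrays, which may be technical.

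Gene duplication leaves families of near-identical genes side by side, as in the haemoglobins, the trypsins and amylases of the exocrine pancreas, and the inducible heat-shock proteins. Retrotransposition leaves processed copies of highly expressed genes, above all of ribosomal protein genes, scattered over the genome. On the sex chromosomes, germline gene families have been amplified into many copies. A probe set on such sequence reports the combined signal of its genes and cannot say which copy was transcribed.

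Promoters are shown first for the enzyme genes that passed the test and for the heat-shock and alpha-globin pairs, which did not pass but passed without 1 array. They come from the RefSeq table of GRCm38.p6. Each runs from 250 bases before to 50 bases after the annotated start, 5′ to 3′ on the gene's strand. Hspa1a and Hspa1b, which encode the stress-inducible HSP70 proteins, share 1 member. Capitals mark GAANNTTC, a form of the heat-shock element, searched on both strands and present in 7.86% of all 32851 promoters of this table.
Hspa1a, chr17:34972107-34972406, minus strand: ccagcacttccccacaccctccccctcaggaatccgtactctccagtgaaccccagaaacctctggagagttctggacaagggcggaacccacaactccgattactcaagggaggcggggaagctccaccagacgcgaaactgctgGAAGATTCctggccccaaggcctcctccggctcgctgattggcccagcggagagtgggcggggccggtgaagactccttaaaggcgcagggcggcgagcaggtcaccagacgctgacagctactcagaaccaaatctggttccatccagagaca
Hspa1b, chr17:34959189-34959488, minus strand: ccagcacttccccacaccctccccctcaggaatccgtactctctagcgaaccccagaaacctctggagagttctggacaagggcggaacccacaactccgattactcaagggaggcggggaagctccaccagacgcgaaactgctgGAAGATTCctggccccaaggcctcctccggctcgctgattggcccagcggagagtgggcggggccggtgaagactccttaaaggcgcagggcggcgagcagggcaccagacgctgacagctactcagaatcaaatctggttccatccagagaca
These sequences were 98.7% identical and differed at 4 positions, counted from 1 at the 5′ end with the Hspa1a base first, C44T, T47C, T249G and C276T. The motif lay at position 147 in both.

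Prss1 and Prss3 encode trypsinogens, precursors of the digestive protease trypsin, and Amy2b and Amy2a5 encode pancreatic amylase. Here capitals mark CACCTG, a core E-box of basic helix-loop-helix factors, again on both strands. It was present in 20.2% of all promoters of the table.
Prss1, chr6:41458680-41458979, plus strand: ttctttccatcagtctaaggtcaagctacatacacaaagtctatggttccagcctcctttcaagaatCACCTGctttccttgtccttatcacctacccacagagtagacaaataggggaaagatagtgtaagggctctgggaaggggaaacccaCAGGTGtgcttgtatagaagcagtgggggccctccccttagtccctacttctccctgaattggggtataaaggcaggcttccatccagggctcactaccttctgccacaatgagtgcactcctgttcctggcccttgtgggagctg
Prss3, chr6:41377564-41377863, minus strand: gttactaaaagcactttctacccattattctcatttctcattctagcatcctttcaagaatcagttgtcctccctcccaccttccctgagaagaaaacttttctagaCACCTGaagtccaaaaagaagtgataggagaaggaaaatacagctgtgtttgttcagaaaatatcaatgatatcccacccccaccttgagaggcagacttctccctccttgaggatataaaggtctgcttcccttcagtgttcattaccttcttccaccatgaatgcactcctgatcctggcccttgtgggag
Amy2b, chr3:113156678-113156977, minus strand: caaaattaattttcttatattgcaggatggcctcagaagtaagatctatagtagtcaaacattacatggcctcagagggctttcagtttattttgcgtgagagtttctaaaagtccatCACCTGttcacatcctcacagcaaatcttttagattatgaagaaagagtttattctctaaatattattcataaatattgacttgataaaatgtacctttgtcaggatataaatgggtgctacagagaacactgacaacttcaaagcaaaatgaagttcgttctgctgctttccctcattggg
Amy2a5, chr3:113258650-113258949, minus strand: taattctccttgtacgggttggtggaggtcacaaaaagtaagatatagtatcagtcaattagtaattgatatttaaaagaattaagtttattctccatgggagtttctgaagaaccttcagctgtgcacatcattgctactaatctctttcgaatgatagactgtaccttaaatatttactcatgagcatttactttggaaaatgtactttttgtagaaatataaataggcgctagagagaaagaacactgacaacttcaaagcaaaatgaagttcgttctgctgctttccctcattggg
Prss1 held 2 matches, Prss3 and Amy2b 1 each, and these letters were not in the Amy2a5 window. Unlike the Hspa1 pair, these promoters had diverged: Prss1 and Prss3 were 59.8% identical, and Amy2b and Amy2a5 were 69.6% identical, gaps counted as differences.

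Hba-a1 and Hba-a2, which encode alpha-globin, are printed with GATAAG in capitals, a motif of GATA factors that 7.44% of all promoters of the table held on either strand.
Hba-a1, chr11:32283422-32283721, plus strand: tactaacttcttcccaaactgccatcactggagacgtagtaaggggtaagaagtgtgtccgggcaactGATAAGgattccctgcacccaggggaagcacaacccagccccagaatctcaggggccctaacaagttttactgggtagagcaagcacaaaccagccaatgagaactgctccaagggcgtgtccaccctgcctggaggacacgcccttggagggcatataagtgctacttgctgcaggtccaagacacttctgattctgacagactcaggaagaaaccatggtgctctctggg
Hba-a2, chr11:32296242-32296541, plus strand: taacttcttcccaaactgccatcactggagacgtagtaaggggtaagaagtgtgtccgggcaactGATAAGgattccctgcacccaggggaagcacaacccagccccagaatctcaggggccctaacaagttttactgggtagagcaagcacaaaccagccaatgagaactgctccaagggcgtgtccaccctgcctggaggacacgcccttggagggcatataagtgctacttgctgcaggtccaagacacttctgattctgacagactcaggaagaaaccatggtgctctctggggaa
Their only difference was an offset of the annotated starts: the alignment had 0 mismatches and 6 gap columns, and was 98.0% identical. Matches to a motif are a description of the letters and show neither a bound site nor a cause.

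MicroRNA genes form a further class of members, and mature sequences are shown for genes that share a seed or a whole sequence. In the sequences below, capitals mark the seed (bases 2 to 8).
let-7b-5p: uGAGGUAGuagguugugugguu
let-7c-5p: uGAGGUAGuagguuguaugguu
miR-29b-3p: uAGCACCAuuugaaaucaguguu
miR-29c-3p: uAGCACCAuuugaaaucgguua
miR-692 (Mir692-2 and Mir692-3): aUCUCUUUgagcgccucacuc
The let-7 pair shared 1 seed and the miR-29 pair another, although each gene had a member of its own together with a host transcript. Mir692-2, on chromosome 4, and Mir692-3, on chromosome 13, give the same mature RNA and share members with Ftl1, the ferritin light chain gene.

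Median intensity over all probe sets was 82.0 to 92.0 per array, and 14150 to 16014 probe sets per array exceeded the background. Background was a log2 intensity of 5.97, the 95th percentile of the means of 1204 olfactory and vomeronasal receptor probe sets, genes of sensory neurons. The arrays differed in width: the interquartile range of log2 intensity was 3.07, 2.72 and 2.23 on pancreas arrays 1 to 3 and 2.49, 2.80 and 3.00 on spleen arrays 1 to 3. Having 6 arrays bounds how precise any value can be. Foxp3, the transcription factor that defines Treg cells, had log2 intensities of 11.15 to 11.74, and all 6 measured markers of the sorted cells were above background. Acinar cells, which make digestive enzymes, are not in the gate. Yet all 14 acinar markers with a probe set of their own had a mean over the 6 arrays above background, and 11 rose in pancreas. Some were below background on spleen arrays, as Try4 was on all 3, at 5.49, 5.62 and 5.88. The summed intensity of the 14 was 16409 to 33928 on the pancreas arrays against 1248 to 3190 on the spleen arrays.

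The 1325 members name 1896 genes by ID, of which 1873 matched RefSeq. Members naming exactly 2 genes were 657, or 49.6%, and the longest list had 20 genes. Many members repeat the same genes: there were 741 distinct sets of names, of which 240 recurred on several members and covered 824 of them. Such members share sequence and are not independent measurements. Of the genes named, 1305 were measured on this array only together with another gene, and 585 also had a probe set of their own.

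By the names, 494 members held relatives with a shared symbol stem, such as Hba-a1 and Hba-a2. A further 431 paired 1 named gene with predicted or clone names, and 110 held predicted or clone names only. Different symbols were paired on 227 members, and a small RNA gene stood with its host gene or with other small RNAs on 63. A protein-coding gene and a pseudogene, by RefSeq's biotypes, stood together on 414 members. The genes lay on several chromosomes for 483 members, whose median log2 intensity was 10.66. They lay on 1 chromosome, each within 10 genes of the next, for 482, at a median of 5.98, and on 1 chromosome farther apart for 302, at 6.05. These medians are over different probe sets, whose levels are not on a common scale. All genes lay on the X chromosome for 77 members and on the Y chromosome for 41.

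A mean above background was found for 854 members. The name patterns of 45 gene families were searched, and 934 members matched 1 or more of them. Ribosomal proteins were the largest group with 223 members, all above background, and 129 of these named both a protein-coding gene and a pseudogene. X- and Y-linked and germline multicopy genes had 161 members, of which 33 were above background, and chemosensory receptors had 160, of which 32 were. Next came C2H2 zinc fingers with 42 members, high-mobility-group and chromatin proteins with 41, microRNAs with 38 and small nucleolar and other small RNAs with 28.

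In the comparison of pancreas with spleen, limma called 4 of 1325 members higher in pancreas and 0 lower at an adjusted p under 0.05. Over all probe sets the shares called were 0.253% higher and 0.0522% lower. The members called were 0.302% of all members, near the background. At an unadjusted p under 0.05, 41 members were higher, against 3.26% of all probe sets, and 26 were lower, against 3.35%. These are 3.09% and 1.96% of the members. Arrays of the tissues did not overlap for 89 members higher in pancreas (6.72%) and 38 lower (2.87%), where 4.98% and 5.54% of all probe sets did not overlap. The median log2 difference was 0.12 over members and 0.01 over all probe sets. It depended on single arrays: without pancreas replicate 3 it was 0.03 and -0.03, and without pancreas replicate 1 it was 0.21 and 0.06. Pancreas array 3 was the highest array for 47.3% of members and 32.1% of all probe sets.

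**Figure D1:**
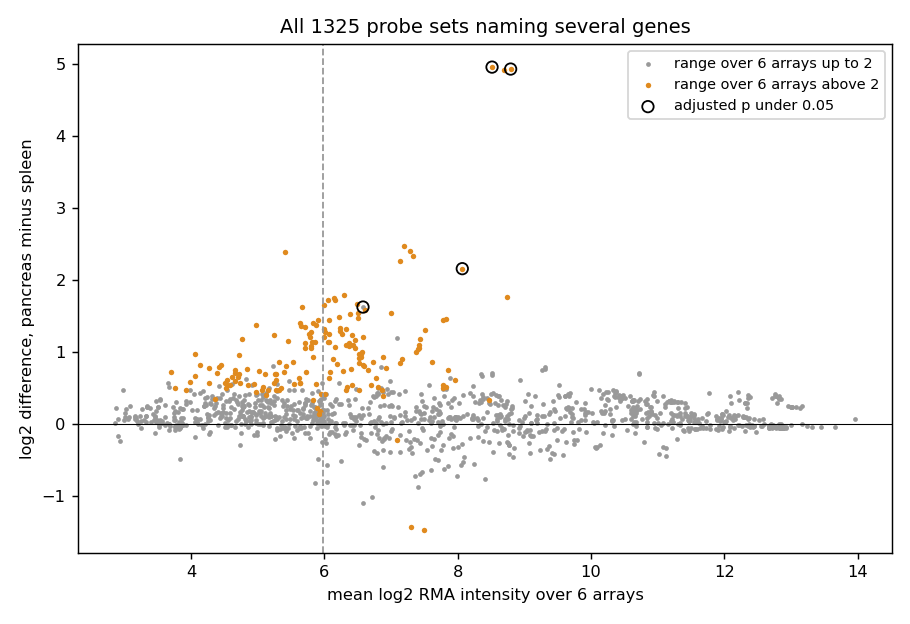
Each point is 1 of the 1325 members, with its mean log2 RMA intensity over 6 arrays on the x axis and the log2 difference, pancreas minus spleen, on the y axis. The dashed line is the background (5.97), orange points range over more than 2 log2 units between arrays, and black rings mark the 4 members called. The 2 trypsin and 3 amylase members and a cloud of orange points near the background lie above the rest.

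All 4 members called were digestive enzyme genes. Prss1, Prss3, Gm10334 and Gm5771, trypsinogen genes of the chromosome 6 cluster, were named together by 2 members. On the first, log2 intensity was 8.98, 9.58 and 8.89 on the pancreas arrays and 7.10, 6.85 and 7.03 on the spleen arrays. The tissues were clearly separated, with means of 9.15 ± 0.37 and 6.99 ± 0.13 (SD, n = 3). The log2 difference was 2.16 (SE 0.21), or 4.46-fold, with a limma adjusted p = 0.00777. The second trypsin member was dimmer, at 7.44, 7.31 and 7.42 in pancreas and 6.01, 5.56 and 5.73 in spleen. It differed by 1.63 (SE 0.17; limma adjusted p = 0.00924), and 2 of 3 spleen arrays were below background. With those raised to the background level, the fold was 2.65. When every dim value was raised so in all probe sets, this member stayed called and the first did not (limma adjusted p = 0.225). Prss3 has a probe set of its own, which rose by 1.64 (limma adjusted p = 0.016). The own probe set of Gm5771 differed by 0.40, short of the threshold.

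Amy2a2, Amy2b and Amy2a5 were named together by 3 members. The first read 11.03, 11.54 and 10.41 on the pancreas arrays and 5.34, 4.69 and 8.08 on the spleen arrays. Spleen array 3 thus stood well above the other spleen arrays, which were below background, and still below every pancreas array. The log2 difference was 4.96 (SE 0.75), or 31.1-fold on the measured means, with a limma adjusted p = 0.0481. It was 20.0-fold with the 2 dim arrays raised to background. The other amylase members differed by 4.93 and 4.92, with limma adjusted p-values of 0.0498 and 0.0508, so the last missed the threshold while showing the same values. Without spleen replicate 3 the difference of the first was 5.98 (limma adjusted p = 0.000567). Without pancreas replicate 1 or 2, or spleen replicate 1 or 2, none of the 3 was called, and their adjusted p went up to 0.198.

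The acinar marker genes moved with the amylase members. Their summed intensity was 21381, 33928 and 16409 on the pancreas arrays, in the order of the amylase values, and 1294, 1248 and 3190 on the spleen arrays, again highest on spleen array 3. The trypsin members did not follow this order in spleen, where both were highest on array 1 (7.10 and 6.01). In pancreas the first trypsin member had the order of the acinar sums, while the second was lowest on array 2 (7.31). Whether the enzyme transcripts came from the sorted cells was not tested. In bulk samples like these, fewer cells of a type and less RNA per cell cannot be told apart.

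**Figure D2:**
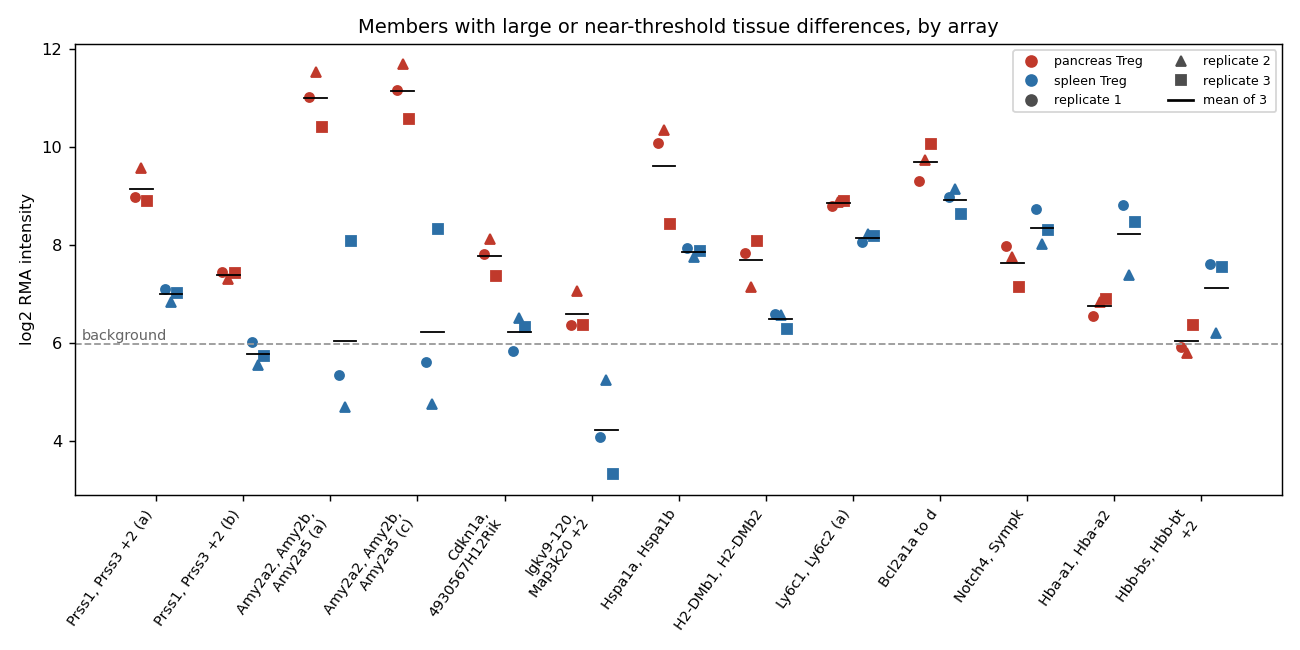
Log2 RMA intensity of 13 members on each array, pancreas in red and spleen in blue, with the replicate given by the symbol and the mean of 3 arrays by a black bar. The dashed line is the background (5.97). The trypsin and amylase members are higher on every pancreas array, and amylase on spleen array 3 reads 8.08 in the first member.

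Heat-shock proteins, which protect proteins under stress, formed another group. Hspa1a and Hspa1b read 10.09, 10.35 and 8.43 on the pancreas arrays and 7.94, 7.77 and 7.88 on the spleen arrays. All pancreas arrays were higher, but pancreas array 3 by much less than the other two. The log2 difference was 1.76 (SE 0.43; limma adjusted p = 0.199) and did not pass the test. Without pancreas replicate 3 it was 2.36 and passed (limma adjusted p = 0.000387). The own probe set of Hspa1a showed the same order, at 8.58, 9.05 and 7.61 against 7.30, 7.12 and 7.16, with a difference of 1.22 (limma adjusted p = 0.25). In all, 10 members in 5 sets of names named heat-shock proteins or chaperonins, with a median difference of 0.20. All 10 had a positive difference, as did 966 of 1325 members and 12962 of all 24922 probe sets. At an unadjusted limma p under 0.05, 1 was higher, against 3.26% of all probe sets. Hspa8, the constitutive HSP70, was named with the small nucleolar RNA genes Snord14c and Snord14d, which lie in its introns, by members differing by 0.71 and 0.70. Its 3 own probe sets differed by only 0.07 to 0.23.

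Cdkn1a, the cell-cycle inhibitor p21, was named with 4930567H12Rik. It read 7.82, 8.12 and 7.38 on the pancreas arrays and 5.83, 6.52 and 6.34 on the spleen arrays, with no overlap. The log2 difference was 1.54 (SE 0.25; limma adjusted p = 0.0513), just short of the threshold. Without pancreas replicate 3 it passed, with a difference of 1.74 (limma adjusted p = 0.0109).

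Among immune genes, H2-DMb1 and H2-DMb2 encode the beta chain of the peptide exchanger that loads MHC class II molecules. Their member read 7.83, 7.15 and 8.07 on the pancreas arrays and 6.60, 6.57 and 6.29 on the spleen arrays. Its log2 difference was 1.20 (SE 0.24; limma adjusted p = 0.115). The 9 B cell markers with a probe set of their own, none of which passed the test, ran in the same order in pancreas, with summed intensities of 1549, 923 and 2023, against 672 to 790 in spleen. Their part in the result was not tested. The family had 8 members, all above background, with a median difference of 0.14. The members naming the class I genes H2-K1 and H2-D1 differed by 0.13 and -0.09.

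Outside the naming rule, and chosen after its values were seen, was a member naming Map3k20 with 3 immunoglobulin kappa segments. It read 6.37, 7.07 and 6.36 in pancreas and 4.08, 5.24 and 3.32 in spleen, where all 3 arrays were below background. The pancreas mean was at least 1.54-fold above the background level, and the limma adjusted p was 0.0817. Without spleen replicate 2 the adjusted p was 0.0385.

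Ly6c1 and Ly6c2 encode Ly6C, a surface protein of T cell and monocyte subsets, and were named by 2 members. On the brighter one the pancreas arrays read 8.81, 8.88 and 8.91, and the spleen arrays 8.05, 8.23 and 8.18. The spread within each tissue was small, and the log2 difference was 0.71 (SE 0.14; limma adjusted p = 0.118). The second member differed by 0.49 (SE 0.15; limma adjusted p = 0.356). Of the 12 macrophage and dendritic cell markers with a probe set of their own, 4 were above background, the median difference was 0.06, and 1 rose, the lysozyme gene Lyz2, by 1.90 (limma adjusted p = 0.00778). Their summed intensity was 957 to 1026 on the pancreas arrays and 662 to 784 on the spleen arrays, and their part in the Ly6c values was not tested. The A1 genes Bcl2a1a, Bcl2a1b, Bcl2a1c and Bcl2a1d encode relatives of BCL-2 that oppose cell death. Their 3 members, all with the same names, differed by 0.76 to 0.79 with limma adjusted p-values of 0.317 to 0.331. They were higher on every pancreas array, as were 4.98% of all probe sets. The own probe set of Bcl2a1c differed by 0.91 (limma adjusted p = 0.35).

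Further immune families were named as well. Tgtp1 and Tgtp2, interferon-induced GTPases, read 10.69, 10.76 and 10.57 in pancreas, each below the lowest spleen array at 10.78, a difference of -0.25. Gbp2 and Gbp2b, guanylate-binding proteins, differed by 0.29, and Trim5, Trim12a and Trim12c by -0.40. None passed. Members naming 9930111J21Rik1 and 9930111J21Rik2, relatives of the same GTPases, were outside the naming rule and chosen after their values were seen. They were lower on every pancreas array, as were 5.54% of all probe sets. Their differences were -0.45 and -0.41, with unadjusted limma p-values of 0.0205 and 0.0287. The chemokine members, Ccl21 and Ccl27 gene clusters, differed by 0.35, 0.08 and 0.03. The Cd300ld and Pira or Pirb receptor members named by the rule differed by 0.27 and 0.25, and the lymphocyte lectin-like receptor genes Klra had 4 members, 0 of them above background, with differences of 0.28 to 1.37 and 0 at an unadjusted p under 0.05. The member naming Tdpoz4 and Tdpoz8, genes of the speckle-type POZ family, read 7.09 to 7.38 in pancreas and 6.38 to 6.59 in spleen. Its difference was 0.79 (limma adjusted p = 0.108).

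Haemoglobins were the family with the most negative median, -1.26 over 4 members in 2 sets of names. All 4 were lower at an unadjusted limma p under 0.05, where 3.35% of all probe sets were. The first alpha-globin member, naming Hba-a1 and Hba-a2, read 6.55, 6.84 and 6.90 in pancreas and 8.82, 7.39 and 8.48 in spleen. Every spleen array was higher, and spleen array 2 the least so. The log2 difference was -1.47 (SE 0.33; limma adjusted p = 0.157), and that of the second alpha-globin member was -1.43 (limma adjusted p = 0.165). Without spleen replicate 2 these were -1.89 and -1.84 and passed, with limma adjusted p-values of 0.0424 and 0.0468. Of the beta-globin members, naming Hbb-bs, Hbb-bt, Hbb-b1 and Hbb-b2, one differed by -1.09 and the other by -1.01, and their arrays overlapped between tissues. Of the 2 erythroid markers with a probe set of their own, 1 was above background. Alas2, the first enzyme of haem synthesis in red cell precursors, read 5.48 to 6.04 over the arrays and differed by -0.07. Its mean was below background. Slc4a1, the red cell anion exchanger, read 5.98 to 6.76 and differed by 0.04. Both lay near background, where a difference could be missed, and the part of red cells in the globin values was not tested.

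Further members lower in pancreas paired unrelated symbols. Notch4 and Sympk were named together by 5 members, all lower, by -0.57 to -0.73. On the brightest, which the naming rule did not pick, pancreas read 7.99, 7.76 and 7.14 and spleen 8.74, 8.02 and 8.30. Both genes also have their own probe sets, and these differed by -0.17 (Notch4) and 0.04 (Sympk), so the shared members did not follow either gene's own value. The members naming Dzip1 and Cldn10 (-0.80; own Dzip1 probe set -0.99, own Cldn10 probe sets 0.10 and 0.15), Ganc and Capn3 (-0.72), and Zfp950 and Arid4b (-0.77) had adjusted p-values of 0.232, 0.27 and 0.349 in limma. For Dzip1 and Cldn10 all 3 pancreas arrays were below background, so the spleen mean was at least 1.39-fold higher. The member naming Ermard, Rbmxl1 and 2 predicted genes differed by -0.59, Hnrnph3 with Aff3 by -0.57, and Zfp983 with Gm10509 by -0.45. The 42 zinc finger members held 34 sets of names. Of these members, 10 were lower on every pancreas array and 1 higher, where 5.54% and 4.98% of all probe sets were. At an unadjusted limma p under 0.05, 4 were lower and 0 higher, against 3.35% and 3.26% of all probe sets. Their median was -0.01.

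**Figure D3:**
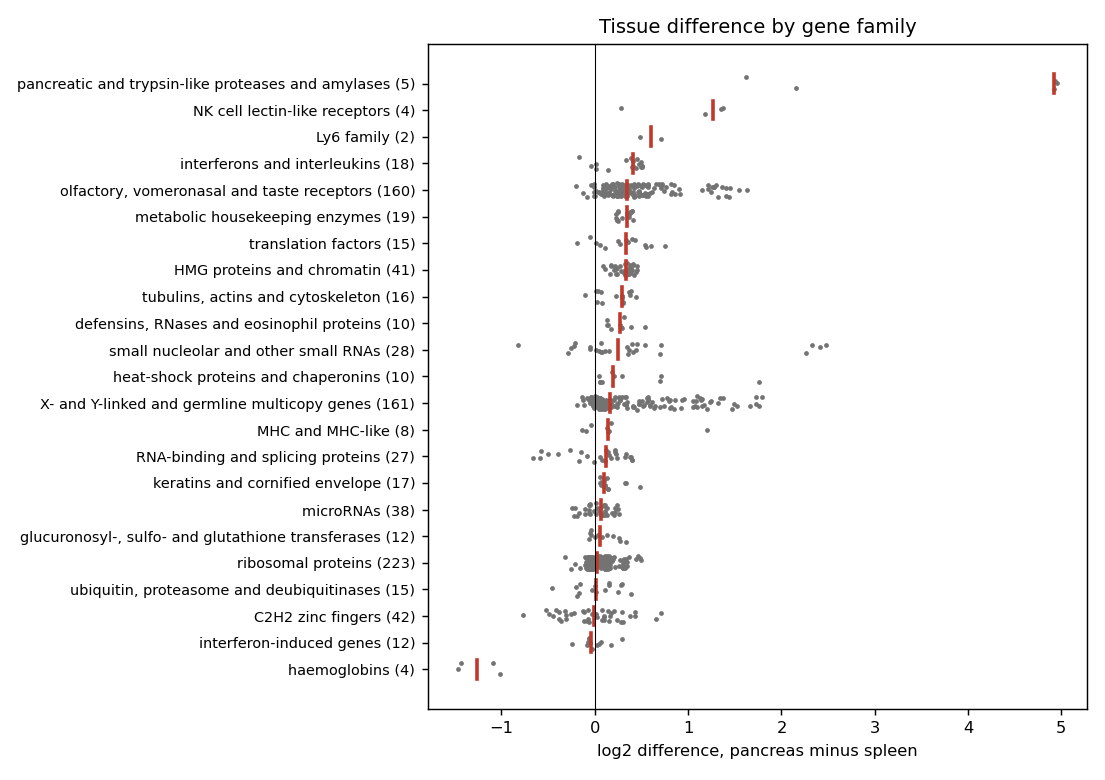
Log2 difference, pancreas minus spleen, on the x axis for every member (grey points, spread vertically for legibility) of the larger families and of 5 small ones, with the number of members in parentheses and the family median as a red bar. Digestive enzymes lie highest with a median of 4.92, haemoglobins lowest at -1.26, and ribosomal proteins cluster around 0.03.

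Housekeeping families were bright and moved little. The 223 ribosomal protein members had a median log2 difference of 0.03 and ran from -0.32 to 0.49. Rpl21 is named by 31 members, which read between 11.92 and 12.89 and differed by -0.06 to -0.01. The top of the family was Rps12, named with Nol11 by 4 members differing by 0.44 to 0.49. These 4 were higher on every pancreas array, as were 4.98% of all probe sets. The smallest of their limma adjusted p-values was 0.417. Own probe sets of Rps12 differed by 0.44 to 0.46, while Nol11 itself differed by -0.35, so these members followed Rps12. Gapdh, the glycolytic enzyme, was named with processed copies by 19 members in 5 sets of names, which differed by 0.23 to 0.41. All 19 were higher on every pancreas array, where 4.98% of all probe sets were, and 0 had an unadjusted limma p under 0.05.

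High-mobility-group proteins bend and package DNA. All 41 members of that group, in 12 sets of names, had a positive difference, as did 966 of 1325 members and 12962 of all 24922 probe sets. The group's median was 0.33, and 0 had an unadjusted limma p under 0.05. Hmgb1 is on 32 of the 41 (0.16 to 0.46), yet its own probe set differed by -0.18. The medians of the 32 were 10.50, 10.42 and 11.04 on the pancreas arrays and 10.60, 10.10 and 10.18 on the spleen arrays. Tuba1a, Tuba1b and Tuba1c, alpha-tubulins, were named in 2 combinations that differed by 0.44 and 0.38, with unadjusted p-values of 0.0289 and 0.0448. Sec61g, a subunit of the channel that passes proteins into the endoplasmic reticulum, was on 4 members that differed by 0.39 to 0.42 with unadjusted p-values of 0.0175 to 0.0293. The U1 small nuclear RNA genes Rnu1b1, Rnu1b2 and Rnu1b6, components of the spliceosome, were on 3 members differing by 0.36 to 0.53, and Ptma, a chromatin protein of dividing cells, on 3 differing by 0.38 to 0.40. Sec61g and Ptma were chosen after their values were seen.

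Further members fell under the naming rule with small differences. Pabpc4 with a predicted gene differed by 0.35 and 0.43, Smarca5 by 0.30, H3f3b by 0.32 on both its members, and H2aw with Trim17 by 0.41. The ribonuclease genes Rnase4 and Ang, which share a promoter region, differed by 0.54 with an unadjusted p of 0.0142, and Rnaset2a and Rnaset2b by 0.14. Of the mitochondrial members, Cox16 differed by -0.35 and Ndufs5 by -0.29. Ube3a with Srebf2, P3h3 and C230091D08Rik differed by -0.46, Ubald2 by 0.30, Cyp4v3 with Klkb1 by -0.21, and Samd1 with Prkaca by 0.10. The glutathione transferases Gstp1 and Gstp2 differed by -0.06 and -0.05, Rap1a by 0.03, and Rhot2 with Wdr90 and Slc10a3 with Gm44504 by less than 0.01 in size. Scgb2b secretoglobins differed by 0.14, and the keratin-associated Krtap20-2 and Krtap10-4 members by 0.48 and 0.32. None of these passed the test.

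The 38 microRNA members, 17 of them above background, had a median difference of 0.06 and ran from -0.24 to 0.25. The members with the let-7b and let-7c genes, printed above, differed by 0.07 and 0.04. Those with the miR-29b and miR-29c genes differed by -0.11 and -0.21 and were below background. The rule named Mir23b with Aopep, at 0.22, and 1 of the Mir692 and Ftl1 members, at 0.23. Such probe sets read long RNA of the host gene or hairpin, not the mature microRNA alone.

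A second pattern ran across arrays and not across tissues. Snord116l1 and Snord116l2, small nucleolar RNA genes of the imprinted Prader-Willi region, had median log2 intensities over 4 members of 5.47, 9.15 and 10.72 on the pancreas arrays and 9.46, 4.46 and 4.27 on the spleen arrays. Pancreas arrays 2 and 3 and spleen array 1 were bright, while the rest were below background. The members differed by 2.27 to 2.47 between tissue means, with SEs of 1.53 to 1.61, and passed no test. With dim values raised to background, the differences were 1.19 to 1.35, and the arrays of the tissues overlapped.

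The same arrays were bright for several germline families. Btbd35f, X-linked genes with a BTB domain, had medians of 4.02, 7.58 and 9.44 in pancreas and 7.89, 3.98 and 3.88 in spleen over 5 members. Spin2, spindlin relatives on the X chromosome, read 4.85, 6.99 and 8.83 against 8.20, 4.91 and 4.36 over 7 members. The medians of both families were below background on pancreas array 1 and spleen arrays 2 and 3. Speer4 genes, expressed in testis, gave 4.77, 6.94 and 8.62 against 7.58, 4.54 and 4.56 over 11 members. The 15 members naming Vmn2r34, a vomeronasal receptor, gave 4.38, 6.88 and 8.52 against 7.30, 4.40 and 4.22. By the medians, each of these families and Snord116l had pancreas array 3 at the top, then spleen array 1, then pancreas array 2. These groups were chosen after their values were seen.

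**Figure D4:**
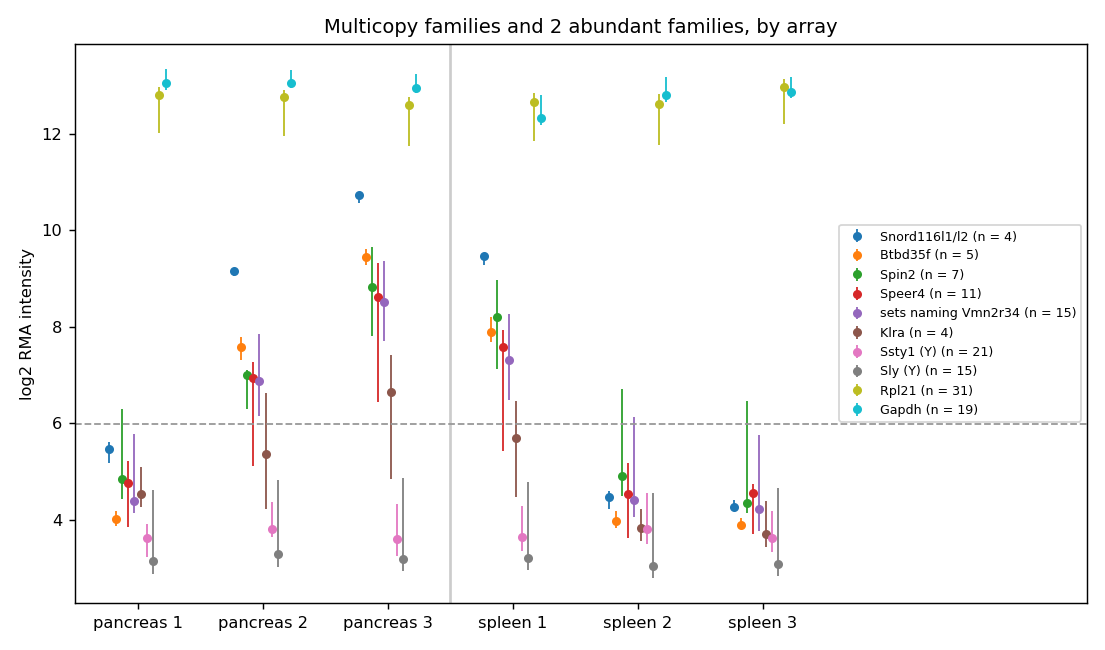
Median log2 RMA intensity (points) and the range over members (vertical lines) on each of the 6 arrays, for 8 multicopy families and for Rpl21 and Gapdh; the dashed line is the background (5.97). Snord116l reaches 10.72 on pancreas array 3 and 4.27 on spleen array 3, while Ssty1 and Sly stay below background and Rpl21 stays near 12.7 on every array.

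Over all members, 170 (12.8%) ranged over more than 2 log2 units between arrays, against 0.691% of probe sets naming exactly 1 gene. Of these 170, 160 were highest on pancreas array 3, and 145 (85.3%) had pancreas 3, spleen 1 and pancreas 2 in that order at the top. The share rose with the number of genes named: 3.50% of members naming 2 genes, 9.65% with 3 to 4, 31.4% with 5 to 9 and 44.8% with 10 or more. Members with 10 or more genes had medians of 4.50, 6.69 and 8.29 on the pancreas arrays and 7.17, 4.49 and 4.46 on the spleen arrays. Members naming 2 genes had medians of 7.72 to 7.85 on all 6. The order was not particular to members. Probe sets naming exactly 1 gene with a mean below background had it too, in smaller steps. Their medians were 4.87, 5.08 and 5.31 on the pancreas arrays and 5.21, 5.03 and 4.91 on the spleen arrays. The bright arrays were those with the narrowest intensity distribution, as given above (2.23, 2.49 and 2.72); the part of array width in this pattern was not tested.

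**Figure D5:**
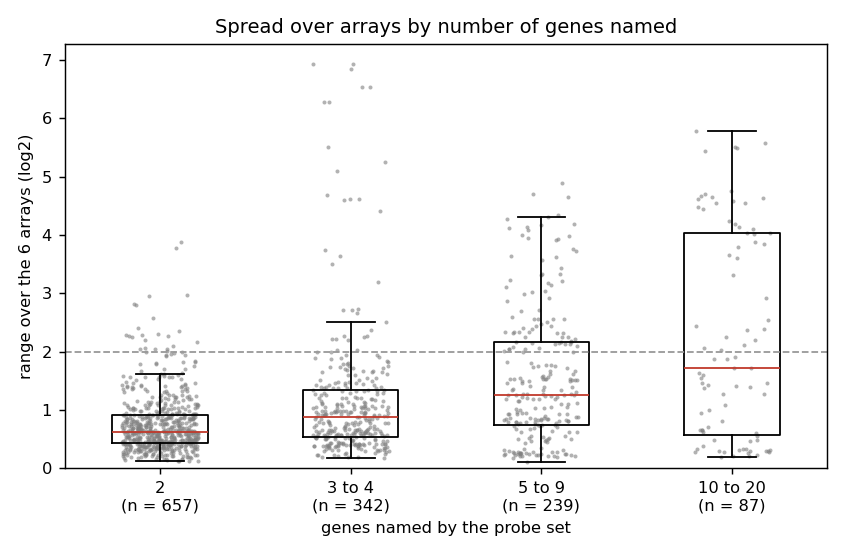
Range over the 6 arrays (highest minus lowest log2 intensity) on the y axis for every member, by the number of genes it names on the x axis. Boxes give the quartiles with the median in red, whiskers reach the last point within 1.5 times the box, and the dashed line marks 2; the median range goes from 0.63 for 2 genes to 1.72 for 10 to 20.

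Multicopy genes of the Y chromosome did not show it. On the Y chromosome, the 21 members naming Ssty1 and the 15 naming Sly, spermatid genes, had medians on the arrays of 3.59 to 3.81 and 3.05 to 3.29 in these female mice. The 41 members whose genes all lie on Y had a mean of at most 4.81, and differed between tissues by -0.14 to 0.10. X-linked members, 77 in all, had a median range over arrays of 1.12, with 34 above background. Pramel genes, a germline family, had the same arrays at the top but were below background on all 37 members, with medians of 4.25, 4.88 and 5.48 in pancreas and 5.44, 4.37 and 4.23 in spleen. Olfactory receptor members also had the same order with smaller steps, at medians of 4.68, 5.27 and 6.06 against 5.65, 4.78 and 4.69 over 96 members. The rule named Olfr51 with Olfr1377 and Olfr1378 (difference 0.85, limma adjusted p = 0.976).

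Interferon zeta genes, Ifnz with its predicted copies, were also highest on these arrays, but with pancreas array 2 ahead of spleen array 1. Their 12 members had medians of 6.30, 7.50 and 7.81 on the pancreas arrays and 7.06, 6.71 and 6.52 on the spleen arrays, differed by 0.39 to 0.51, and none had an unadjusted p under 0.05. The Klra members read 4.53, 5.35 and 6.65 against 5.69, 3.83 and 3.70. Of the 3 bright arrays, 2 are pancreas arrays, and the arrays of the tissues overlapped in all of these families.

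Members with the same names agreed closely. Among the 240 recurring name sets, the median span of the log2 difference was 0.05 and the 95th percentile 0.27. Levels within a set differed more, with a median span of 0.27. The largest sets were Rpl21 with Camkv and Cep170 (22 members), Hmgb1 with its copies (21), Ssty1 with Gm20831 (21), and Rps2 and Rpl7a with 1 predicted gene each (17 both). Rps2 members differed by 0.08 to 0.18 and Rpl7a members by 0.29 to 0.36.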

How the data were processed

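Total RNA of 6 samples, 3 of pancreatic and 3 of splenic Treg cells grouped by the tissue in the labels, was measured on arrays. The authors deposited 1 linear intensity per probe set and array. The submitters' processing notes name RMA and Affymetrix Power Tools, without versions. RMA gives 1 value per probe set and cannot separate transcripts that bind the same probes. The annotation's build was not given in the sources used here. Intensities were taken to log2 with no pseudocount or filter. All 24922 probe sets were fitted with limma 3.58.1 in R 4.3.3 (lmFit and eBayes, no covariates, 4.67 prior and 4 residual degrees of freedom). Tests were two-sided, with Benjamini-Hochberg adjustment over the whole table and a threshold of 0.05; folds are pancreas against spleen.

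Named members were those past the threshold with arrays not overlapping (up to 15 per direction), up to 2 per family above background with the smallest p, members naming any of a short list of stress, globin, enzyme, chemokine and MHC genes, and the 10 per direction with the smallest p that did not pass. Members, families, lists and tests were chosen with earlier results of these data known. On simulated data with 200 changed probe sets of 24922, 60.0% to 74.0% of changes of size 1 (log2) and 97.0% or more of size 2 were found. The simulated noise was normal and independent between probe sets and arrays, without the differences in array width. These shares may therefore be too high for the measured arrays. Names, neighbours and promoters came from RefSeq tables of GRCm38.p6, with a promoter for 1345 of the 1890 symbols and a mature sequence for 35 of the 38 microRNA members. A comparison of proteins was planned and not run, since no protein table was used here. Alternatives covered normalization, dim values, the variance model, array weights, the replicate block, markers of other cells and each array left out. Figures were drawn with matplotlib in Python.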

Additional observations from a re-analysis of the deposited data

How the results depend on the processing

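Against 4 members called higher and 0 lower in pancreas, the count higher was 2 with each array centred on its median. It was 2 with arrays scaled to 1 interquartile range and 1 with dim values raised to background. With probe sets naming markers of other cells left out, which removes the amylases, it was 2. The trypsin members stayed there because the marker list holds neither Prss1 nor Prss3, so that setting did not test them. Other planned settings gave 3 to 6, and 6 when probe sets naming no gene were left out, an alternative chosen after seeing the data. Array weights gave 641 higher and 135 lower, but their estimation stopped before converging, with a weight of 89.3 on pancreas array 2 and 0.153 to 3.40 on the others. Weights estimated gene by gene, also chosen after seeing the data, gave 86 higher and 34 lower. With the replicate block, 2 members were higher: the first trypsin member (adjusted p = 0.0394, limma) and the Map3k20 member (0.0382). The second trypsin member (0.0549) and both called amylase members (0.0751 and 0.0795) were then not called. The replicate numbers alone do not show whether the samples are paired. Deviations from the tissue means correlated at -0.61, 0.07 and -0.72 for replicates 1 to 3. With 3 arrays per tissue that differ in width, these values cannot settle it. Leaving out 1 array gave 2 to 7 higher and 0 to 2 lower: 7 without pancreas replicate 3, and 2 without pancreas replicate 2 or spleen replicate 1. The 2 lower, without spleen replicate 2, were alpha-globin. Both trypsin members stayed called without any 1 array. Over 76 named members and all alternatives, 1130 values kept direction and call, 100 gained the call (58 and 30 of them under the 2 array-weight settings), 21 lost it and 35 changed sign, all 35 in members short of the threshold. With arrays scaled, the Gstp1 and Gstp2 members differed by 0.031 and 0.013, the second H2-K1 and H2-D1 member by 0.0046, and Slc10a3 by 0.032. With quantile normalization Rhot2 differed by 0.026 and Slc10a3 by 0.044. With array weights, and then with weights gene by gene, Rhot2 differed by 0.060 and 0.046, Slc10a3 by 0.032 and 0.021, and the dimmer Ccl27 member by -0.032 and -0.016. Leaving out 1 array gave -0.22 to 0.078 and -0.21 to 0.056 for the Gstp members, -0.14 to 0.72 for Krtap10-4, -0.028 to 0.95 for Krtap20-2, -0.016 to 0.52 for Cd300ld and -0.093 to 0.36 for H2-D1. It gave -0.19 to 0.24 for Rhot2, -0.0015 to 0.67 for Ccl21, -0.17 to 0.21 and -0.077 to 0.27 for Ccl27, -0.14 to 0.58 for Scgb2b, -0.13 to 0.14 for Rap1a, -0.058 to 0.23 for Samd1 and -0.042 to 0.048 for Slc10a3. The cause of these shifts was not tested. Members near background limit every statement on dim families, and 3 arrays per tissue limit the rest.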
